A study of Mus musculus with 8 samples.

Results

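The genes described here encode the lysosome: its hydrolases and their cofactors, its membrane proteins, and the V-ATPase, the pump that acidifies it. They were taken from a list of 49 symbols by exact match to the gene name in the authors' comparison table, and 47 of the 49 were found among the 11840 genes of that table. The count table that supplied the values held 43629 genes. The 47 fell into 5 classes by function, with 10 proteases, 8 glycosidases, 8 lipid enzymes and cofactors, 6 membrane proteins and 15 V-ATPase genes, of which 5 encode the membrane sector V0, 8 the catalytic sector V1 and 2 accessory proteins. The symbols were listed by function with earlier results of these data known, and presence in the authors' table was a further condition. *Gla* (alpha-galactosidase A) and *Galns* (a keratan sulfate sulfatase) were the 2 symbols without a match, so the class named glycosidases and sulfatase in the plots holds glycosidases only.

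The study compared the resting zone of the mouse growth plate, which holds slowly dividing chondroprogenitors, with the proliferative zone, where flattened chondrocytes divide in columns. All 4 mice were Axin2CreERT2;R26RTdTomato, given 3 daily tamoxifen injections from postnatal day 23 and analyzed at postnatal day 30, so both zones carried the same alleles and treatment. In such mice cells that express *Axin2* at the time of injection become red fluorescent, together with their descendants. Fluorescent chondrocytes of the resting zone and flat, non-fluorescent chondrocytes at least 50 μm from the secondary ossification center were microdissected from sections 8 μm thick, which the labels assign to the tibia and the methods to the tibia and femur. Each mouse gave 1 library per zone, so n = 4 per zone, with mice 1 and 2 male and mice 6 and 13 female. The resting zone libraries held 192882 to 462044 counts and the proliferative zone libraries 249284 to 631474 counts. The RNA had been amplified in 2 rounds, and low levels rest on few counts. Levels are in TMM-scaled CPM, and log2 fold changes are resting over proliferative zone throughout.

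Lysosomes degrade proteins, glycans and lipids that reach them by endocytosis, phagocytosis or autophagy, with enzymes that work at acidic pH. The V-ATPase spends ATP in its V1 sector to drive protons through its V0 sector into the lumen. Macrophages and neutrophils are rich in lysosomes or related granules, and osteoclasts place the V-ATPase in their outer membrane to dissolve bone mineral, while chondrocytes use lysosomes for the turnover of their own components. Several lysosomal genes share a promoter sequence, the CLEAR element built around CACGTG, which is bound by TFEB, TFE3 and MITF.

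Shorter words of that element as they stand before and around the start site of members are shown here, because both called and uncalled members hold them. A fixed window of 300 bases, with 250 before and 50 after the start, was available from RefSeq (GRCm38.p6) for 39 of the 47 genes. A gene with several such entries was counted once, if any of them held the word. CACGTG, which reads the same on both strands, stood in 13 of the 39 (33.3%), against 2187 of all 27025 genes with an entry (8.09%) and 330 of the 2702 genes with an entry among those tested below (12.2%). The longer word TCACGTGA, which contains it, stood in 6 of the 39 (15.4%), against 1.12% of all genes with an entry and 2.74% of the tested ones. The full palindrome, which is that longer word with G before and C after it, stood in 0 of the 39, against 0.37% of all genes with an entry and 0.814% of the tested ones. The windows below give 30 bases, 5′ to 3′ on the strand of the gene, with the longer of these words found there in capitals. Those of *Ctsa*, *Ctsd*, *Atp6v1a* and *Atp6v0b* belong to genes called higher in the resting zone in either of the 2 fits below, and the others to genes called in neither.
Ctsa, chr2:164833749-164833778, plus strand: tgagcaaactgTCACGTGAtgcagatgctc
Ctsa, chr2:164833766-164833795, plus strand: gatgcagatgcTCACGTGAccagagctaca
Ctsd, chr7:142387908-142387937, minus strand: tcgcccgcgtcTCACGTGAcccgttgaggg
Atp6v1a, chr16:44139373-44139402, minus strand: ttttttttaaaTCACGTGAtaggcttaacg
Atp6v0b, chr4:117887348-117887377, minus strand: gtgcgcgggggtCACGTGgggtcggcgcat
Mcoln1, chr8:3500462-3500491, plus strand: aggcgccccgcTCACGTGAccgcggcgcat
Atp6v0d1, chr8:105566050-105566079, minus strand: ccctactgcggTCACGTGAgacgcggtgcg
Atp6v0e, chr17:26676387-26676416, plus strand: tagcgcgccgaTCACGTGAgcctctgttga
Lamp1, chr8:13159121-13159150, plus strand: gatgccgactggCACGTGaccacatcacgt
Gaa, chr11:119267811-119267840, plus strand: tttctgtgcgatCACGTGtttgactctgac
Lgmn, chr12:102439124-102439153, minus strand: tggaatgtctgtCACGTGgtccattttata
Both windows of *Ctsa* lie around the start site of entry 2 of that gene, inside the gene. The 250 bases before the start site of its entry 1 held no CACGTG. *Lamp1* held CACGTG at 4 places within its promoter. The 13 genes with the word were 4 of the 15 genes with an entry that were called in either fit (26.7%) and 9 of the 24 called in neither (37.5%). It stood in 4 of 8 proteases and 4 of 11 V-ATPase genes, and in 0 of 6 lipid genes. A match is a run of letters and not a site, and a gene without one may hold it elsewhere.

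As a group, the lysosomal genes stood higher in the resting zone. Their summed level was 5939, 3940, 4472 and 5133 CPM in the resting zone of mice 1, 2, 6 and 13, and 1862, 1484, 1267 and 1593 CPM in the proliferative zone of the same mice. The lowest resting library thus lay above the highest proliferative library, and the means were 4871 ± 863 and 1551 ± 247 CPM (SD, n = 4), a ratio of 3.14. In bulk samples more cells of a type and more RNA per cell cannot be told apart. Of the 47, 31 passed edgeR's filter on low counts and 16 did not. A gene was called at an adjusted p below 0.01 (quasi-likelihood test of edgeR, Benjamini-Hochberg over all tested genes) and a log2 fold change above 1 or below -1. In that fit 15 of the 47 were called with higher levels in the resting zone, as were 11.0% of all 3793 tested genes. With the mouse as a term beside the zone the count was also 15, against 10.2% of the tested genes. In the other direction 0 were called, against 6.93% of the tested genes, and this count of 0 was also 0 at an unadjusted p below 0.05, with the likelihood ratio test and with DESeq2.

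Because the filter keeps a gene that is high in a single zone, all 47 were also read from a second fit of all 17492 genes with a count, called the unfiltered fit from here on. It again called 15 of the 47 as higher in resting libraries, against 4.74% of its genes, and 0 as higher in proliferative libraries, against 2.68%. With the mouse as a term, this fit called 13 as higher in resting libraries, against 3.77% of its genes, and 0 in the other direction, against 2.54%. *Atp6v1a* and *Atp6v1f* were the 2 it lost. The median log2 fold change of the 47 was 1.41 in this fit, where the median of all its genes was 0.16. The value was above 0 in 45 of the 47, with *Lgmn* and *Gaa* the exceptions. The 4 resting libraries all lay above the 4 proliferative libraries for 26 of the 47, while this held for 8.38% of all genes with a count and 17.8% of the 3793 tested genes, and the reverse held for 0 of the 47 and for 4.98% of all genes with a count. Within mice, 35 of the 47 were higher in the resting zone in all 4 animals, against 12.9% of all genes with a count. Scaling by upper quartile factors moved the median log2 fold change of the 3793 genes by -0.22, and the scaling of the second fit by -0.23, so differences of that size depend on the scaling.

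**Figure D1:**
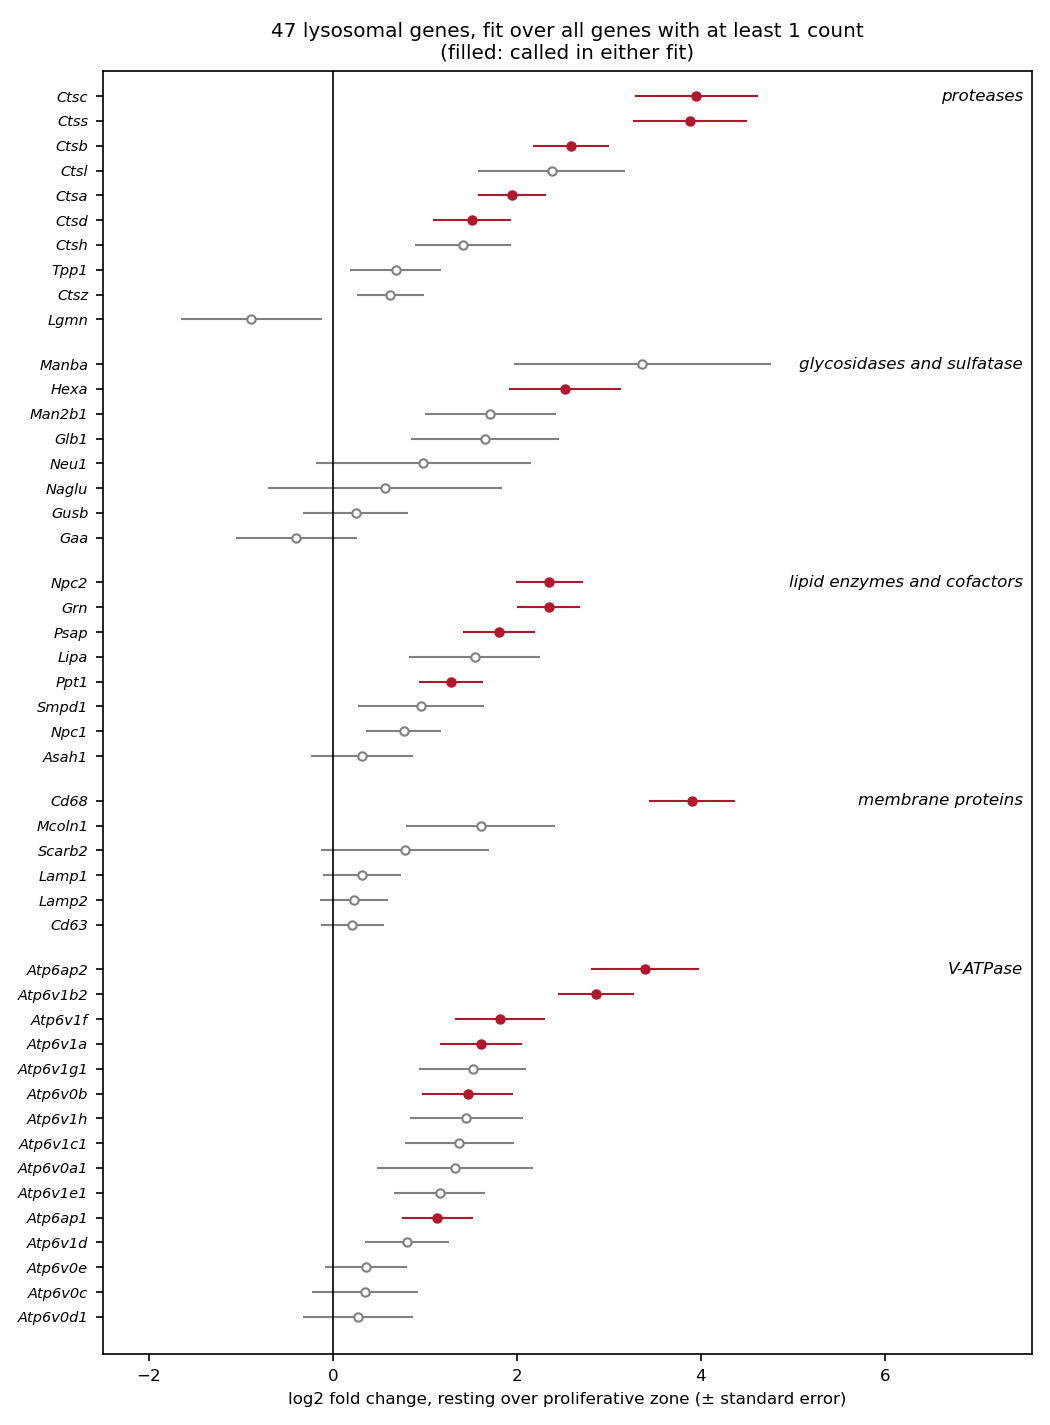
Log2 fold change, resting over proliferative zone, of each of the 47 lysosomal genes in the unfiltered fit, grouped by class, with bars for the standard error and filled points for genes called in either fit. *Ctsc*, *Cd68* and *Ctss* lie farthest to the right at 3.95, 3.90 and 3.88, and 2 genes, *Gaa* and *Lgmn*, lie left of 0.

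The size of the difference was also read class by class. In the unfiltered fit the median log2 fold change was 1.73 for the proteases, 1.32 for the glycosidases, 1.41 for the lipid enzymes and cofactors, 1.38 for the V-ATPase and 0.55 for the membrane proteins. Summed levels of the lipid class were 1619 ± 418 CPM in resting libraries and 407 ± 104 CPM in proliferative libraries (SD, n = 4), a ratio of 3.98. The proteases summed to 1117 ± 155 and 309 ± 41.2 CPM, a ratio of 3.62. The membrane proteins had the smallest ratio, 1.94, with 696 ± 141 and 359 ± 48.6 CPM. Without *Cd68* the membrane proteins summed to 638, 403, 575 and 363 CPM in resting libraries and 367, 320, 311 and 398 CPM in proliferative libraries, a ratio of 1.42, and the zones overlapped. In each of these 3 classes with all their members, and in the V-ATPase, every resting library exceeded every proliferative library. The glycosidases were the exception, since the resting library of mouse 2 summed to 136 CPM and the proliferative library of mouse 13 to 137 CPM. Differences between classes were not tested.

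**Figure D2:**
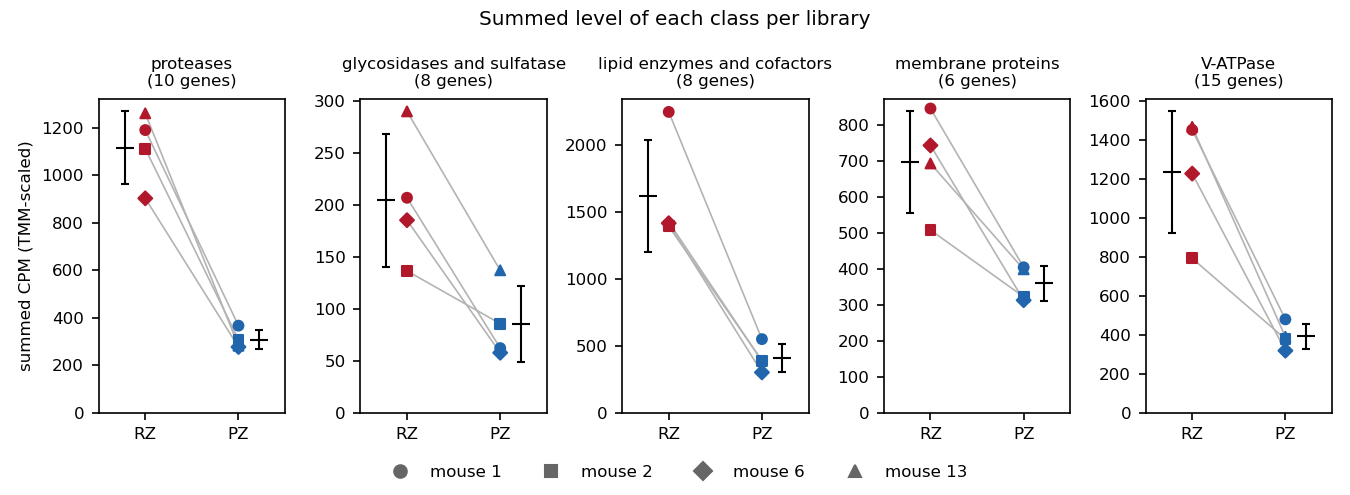
Summed level of each class in CPM in the resting zone (RZ) and proliferative zone (PZ), with 1 point per library, a line joining the libraries of a mouse and the mean with its SD beside the points (n = 4 per zone). The lipid class reached 2245 CPM in the resting library of mouse 1 against 1392 to 1423 CPM in the other 3 mice, and the zones touch only for the glycosidases.

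Proteases. Cathepsins B, C, H, L, S and Z are cysteine proteases, cathepsin D is an aspartic protease, and cathepsin A is a serine carboxypeptidase that also protects beta-galactosidase and neuraminidase. Of the 10 proteases, 4 were called in the filtered fit, 5 in the unfiltered fit, and 9 had zones that did not overlap. Gene positions are in GRCm38. *Ctsb* (chr14:63122462-63145923) stood at 237, 225, 213 and 157 CPM in the resting zone of mice 1, 2, 6 and 13, and at 56.3, 17.1, 17.6 and 24.9 CPM in the proliferative zone. Its lowest resting value was more than 100 CPM above its highest proliferative value, and its log2 fold change was 2.84 (SE 0.41, edgeR adjusted p = 0.000394). *Ctsd* (chr7:142375911-142388038) stood at 149, 133, 103 and 132 CPM against 48.5, 36.0, 36.8 and 29.0 CPM. The zones were again apart, with a log2 fold change of 1.75 (SE 0.31, edgeR adjusted p = 0.00127). *Ctsa* (chr2:164832873-164841032) stood at 267, 174, 245 and 353 CPM against 68.0, 66.8, 56.1 and 29.0 CPM, a log2 fold change of 2.19 (SE 0.33, edgeR adjusted p = 0.000466).

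The proteases with the largest ratios were nearly absent from the proliferative libraries. *Ctsc* (chr7:88278085-88310888), whose product activates the serine proteases of granulocyte granules, stood at 57.7, 105, 39.8 and 98.1 CPM in resting libraries and at 7.77, 1.71, 0 and 8.29 CPM in proliferative libraries. Only 7 counts lay behind the proliferative values, and the log2 fold change was 4.19 (SE 0.70, edgeR adjusted p = 0.000885). *Ctss* (chr3:95526786-95556403), which trims the invariant chain of MHC class II, stood at 82.0, 120, 21.9 and 132 CPM in the resting zone, at 17.5 CPM in the proliferative zone of mouse 1 and at 0 in that of the other 3 mice. It did not pass the filter and was called in the unfiltered fit, with a log2 fold change of 3.88 (SE 0.62, edgeR adjusted p = 2.49e-08) that came to 8.02, a value that depends on the prior count, without the proliferative library of mouse 1. A count of 0 allows up to 3 counts per library, which is 5.14, 4.81 and 12.4 CPM in the proliferative libraries of mice 2, 6 and 13, and against the mean of these limits the resting mean of *Ctss* was at least 11.9-fold higher. With the 17.5 CPM of mouse 1 included in that mean it was at least 8.9-fold higher.

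Other proteases stood closer together. *Ctsz* (chr2:174427493-174439039), a carboxypeptidase, stood at 185, 209, 163 and 167 CPM against 62.1, 115, 107 and 124 CPM. The zones did not overlap (two-sided exact permutation p = 0.0286, which 4 against 4 libraries cannot go below). That test did not use the pairing by mouse. The log2 fold change of 0.83 was below the limit, and the edgeR adjusted p was 0.0411, or 0.0626 with the mouse as a block. *Ctsh* at 1.66 (edgeR adjusted p = 0.0162) and the tripeptidyl peptidase *Tpp1* at 0.93 (edgeR adjusted p = 0.140) were apart as well without being called. *Ctsl*, with 38 counts in resting libraries and 9 in proliferative libraries, had an edgeR adjusted p of 0.0295 in the unfiltered fit. *Lgmn* (legumain, an asparaginyl endopeptidase) was the protease that did not share the direction, at 11.3 ± 5.58 CPM in resting libraries and 16.5 ± 11.3 CPM in proliferative libraries (SD, n = 4), and its zones overlapped.

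**Figure D3:**
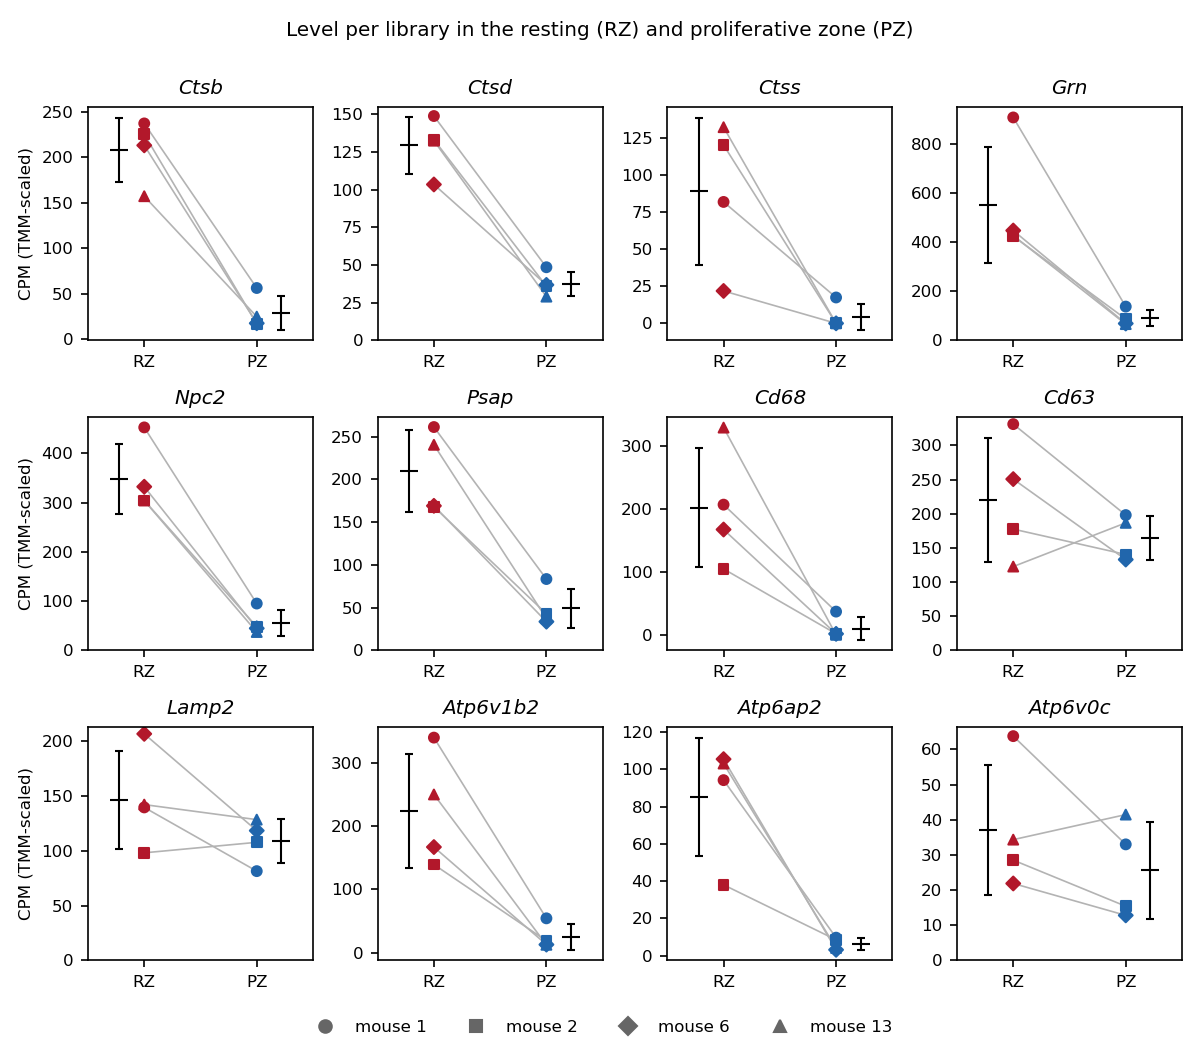
Level in CPM of 12 lysosomal genes in the resting zone (RZ) and proliferative zone (PZ), with 1 point per library, a line joining the libraries of a mouse and the mean with its SD beside the points (n = 4 per zone). The zones are apart for *Ctsb*, *Ctsd*, *Ctss*, *Grn*, *Npc2*, *Psap*, *Cd68*, *Atp6v1b2* and *Atp6ap2*, and overlap for *Cd63*, *Lamp2* and *Atp6v0c*.

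Glycosidases. This class was thinly counted, and only *Hexa* and *Gusb* passed the filter. *Hexa* (chr9:59539540-59565109), the alpha subunit of the hexosaminidase that degrades GM2 ganglioside, stood at 79.0, 38.0, 67.6 and 68.7 CPM against 3.88, 8.56, 3.20 and 29.0 CPM. Its log2 fold change was 2.75 (SE 0.61, edgeR adjusted p = 0.00461), with no overlap between the zones. The adjusted p rose above 0.01 without the resting library of mouse 1 or 13 (0.0160 and 0.0130) and without the proliferative library of mouse 1, 2 or 6 (0.0168, 0.0213 and 0.0197), with a log2 fold change of at least 2.30 in each. *Gusb* (chr5:129989011-130003049), the beta-glucuronidase that trims chondroitin and heparan sulfate chains, stood at 27.3, 19.0, 25.9 and 88.3 CPM against 15.5, 32.5, 20.8 and 45.6 CPM. Its zones overlapped, its log2 fold change of 0.46 was not called (edgeR adjusted p = 0.581), and without the resting library of mouse 13 the value was -0.21.

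The other members of the class rested on few counts. *Man2b1* (lysosomal alpha-mannosidase) at 33.5 ± 10.7 against 8.36 ± 3.72 CPM and *Manba* (beta-mannosidase) at 10.4 ± 4.02 against 1.04 ± 2.07 CPM (SD, n = 4) had zones apart, as had *Neu1* (neuraminidase) with 10 counts in resting libraries and 6 in proliferative libraries. *Glb1* (beta-galactosidase) overlapped. *Gaa* (acid alpha-glucosidase, which degrades glycogen) stood at 19.9 ± 12.6 and 22.6 ± 6.76 CPM, and *Naglu*, which degrades heparan sulfate, at 5.00 ± 3.78 and 4.15 ± 8.29 CPM (SD, n = 4), so a difference in either was not detectable at this depth. None of these 6 was called.

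Lipid enzymes and cofactors. Of the 8 genes 4 were called in both fits. *Grn* (chr11:102430315-102437048), which encodes progranulin, the precursor of lysosomal granulins, stood at 908, 425, 448 and 427 CPM in resting libraries and at 138, 87.3, 68.9 and 66.4 CPM in proliferative libraries. Mouse 1 was highest in both zones, and the log2 fold change was 2.60 (SE 0.35, edgeR adjusted p = 0.000294). *Npc2* (chr12:84754562-84773152), which hands cholesterol to NPC1 inside the lysosome, stood at 453, 304, 332 and 304 CPM against 95.1, 47.9, 44.9 and 37.3 CPM. Its log2 fold change was 2.60 (SE 0.33, edgeR adjusted p = 0.000209), the lowest adjusted p among the 47 in that fit. *Npc1* itself, the membrane transporter that receives the cholesterol, had a log2 fold change of 1.00 (edgeR adjusted p = 0.0607) with overlapping zones.

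*Psap* (chr10:60277627-60302597), the precursor of the saposins that present sphingolipids to their hydrolases, stood at 261, 168, 169 and 240 CPM against 83.5, 42.8, 33.6 and 37.3 CPM. It was 2.06 higher on the log2 scale (SE 0.35, edgeR adjusted p = 0.000974). *Ppt1* (chr4:122836242-122859175), which removes palmitate from degraded proteins, stood at 340, 323, 273 and 240 CPM against 132, 89.0, 76.9 and 116 CPM, with a log2 fold change of 1.52 (SE 0.27, edgeR adjusted p = 0.00111). The zones of both genes were apart. The enzymes that cut lipids themselves were not called. *Lipa* (acid lipase) had 39 counts in resting libraries and 18 in proliferative libraries with zones apart, whereas *Smpd1* (acid sphingomyelinase) and *Asah1* (acid ceramidase, log2 fold change 0.54, edgeR adjusted p = 0.490) overlapped.

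Membrane proteins. Of the 6 genes *Cd68* was called in both fits and the other 5 in neither. *Lamp2* (chrX:38401357-38456454), a glycoprotein that lines the membrane and takes part in autophagy, stood at 140, 98.3, 207 and 142 CPM in resting libraries and at 81.5, 108, 119 and 129 CPM in proliferative libraries. *Cd63* (chr10:128900989-128912822), a tetraspanin of late endosomes, stood at 331, 178, 251 and 123 CPM against 198, 140, 133 and 187 CPM. Both overlapped and were not called, with log2 fold changes of 0.44 (SE 0.30, edgeR adjusted p = 0.303) and 0.44 (SE 0.31, edgeR adjusted p = 0.327). *Lamp1*, the partner of *Lamp2*, was at 0.55 (edgeR adjusted p = 0.281), and *Scarb2*, the receptor that carries glucocerebrosidase, had 18 and 12 counts in the resting and proliferative zones. *Mcoln1*, a calcium channel of the membrane, had 29 and 13 counts, with zones apart and no call.

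*Cd68* (chr11:69664213-69666153), a heavily glycosylated LAMP family protein used as a marker of macrophages and osteoclasts, stood at 207, 105, 167 and 329 CPM in the resting zone. In the proliferative zone it stood at 36.9 CPM in mouse 1 and at 1.71, 1.60 and 0 CPM in mice 2, 6 and 13. The log2 fold change was 4.19 (SE 0.80, edgeR adjusted p = 0.00182). Mouse 1 contributed 19 of the 21 proliferative counts, and without that library the proliferative mean was 1.10 ± 0.958 CPM (SD, n = 3). That mean rests on 2 counts and lies below the limit of 3 counts per library, so the fitted log2 fold change of 6.82 there depends on the prior count.

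V-ATPase. Of its 15 genes, 5 were called in the filtered fit, and 12 were higher in the resting zone in all 4 mice. By sector, the V0 genes had a median log2 fold change of 0.36 in the unfiltered fit and summed levels of 240 ± 43.0 against 127 ± 18.5 CPM, and the V1 genes a median of 1.48 in that fit and summed levels of 741 ± 258 against 194 ± 54.0 CPM (SD, n = 4). The difference between the sectors was not tested. Among V1 genes, *Atp6v1b2* (chr8:69088646-69113711), a nucleotide-binding B subunit, stood at 340, 139, 167 and 250 CPM in resting libraries and at 54.4, 18.8, 12.8 and 12.4 CPM in proliferative libraries. The zones were far apart, with a log2 fold change of 3.13 (SE 0.49, edgeR adjusted p = 0.000615). *Atp6v1a* (chr16:44085402-44139705), its catalytic partner, stood at 125, 38.0, 135 and 177 CPM against 40.8, 22.3, 22.4 and 49.8 CPM. The resting library of mouse 2 lay within the proliferative range, and the log2 fold change was 1.85 (SE 0.47, edgeR adjusted p = 0.0105). Its adjusted p was 0.00958 when the mouse entered as a block, 0.00473 in the unfiltered fit, and without the resting library of mouse 2 0.00201. It was 0.0187 in the unfiltered fit with the mouse as a block, and 0.0177 to 0.0450 with any other library left out.

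*Atp6v1f* (chr6:29467718-29470512), a subunit of the central stalk, stood at 125, 28.5, 111 and 108 CPM against 25.2, 15.4, 16.0 and 37.3 CPM. Mouse 2 was again the low resting library and the zones overlapped (exact permutation test, two-sided p = 0.0571), while the log2 fold change of 2.05 was called (SE 0.50, edgeR adjusted p = 0.00762). Its adjusted p rose above 0.01 without the resting library of mouse 1, 6 or 13 (0.0267, 0.0157 and 0.0204) and without any proliferative library (mice 1, 2, 6 and 13: 0.0168, 0.0343, 0.0327 and 0.0145). In the unfiltered fit with the mouse as a block it was 0.0146, with upper quartile factors 0.0136, and 0.0122 over the genes that the authors' table lists. *Atp6v1e1* at 1.39 (edgeR adjusted p = 0.0381) and *Atp6v1g1* at 1.74 (edgeR adjusted p = 0.0150), both peripheral stalk subunits, had zones apart and were not called.

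In V0, where the values are those of the filtered fit, *Atp6v0b* (chr4:117884326-117887333), a subunit of the proton-carrying ring, stood at 75.9, 66.6, 113 and 54.0 CPM against 29.1, 27.4, 12.8 and 29.0 CPM. Its log2 fold change was 1.69 (SE 0.41, edgeR adjusted p = 0.00797), and the call was lost when the mouse entered as a block (adjusted p = 0.0243), in the unfiltered fit (0.0306), with upper quartile factors (0.0169) and over the genes of the authors' table (0.0279). It was also lost without the resting library of mouse 1, 2 or 6 (0.0187, 0.0122 and 0.0208) and without the proliferative library of mouse 1, 2, 6 or 13 (0.0173, 0.0270, 0.0366 and 0.0262). *Atp6v0c*, the other ring subunit on the list, was at 0.59 (edgeR adjusted p = 0.424). *Atp6v0d1* at 0.49 and *Atp6v0e* at 0.59 were not called either (edgeR adjusted p = 0.456 and 0.264). *Atp6v0a1*, the subunit that holds the proton path, had 26 and 13 counts.

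The accessory proteins were called in the filtered fit. *Atp6ap2* (chrX:12587801-12617049), which is needed to assemble the pump and is also called the prorenin receptor, stood at 94.2, 38.0, 105 and 103 CPM in resting libraries and at 9.71, 8.56, 3.20 and 4.15 CPM in proliferative libraries. Its log2 fold change was 3.63 (SE 0.52, edgeR adjusted p = 0.000398). *Atp6ap1* (chrX:74297097-74304721), the assembly factor Ac45, stood at 200, 149, 181 and 142 CPM against 69.9, 80.5, 60.9 and 45.6 CPM, with zones apart and a log2 fold change of 1.37 (SE 0.29, edgeR adjusted p = 0.00346). That call was lost in the unfiltered fit (adjusted p = 0.0317), over the genes of the authors' table (0.0220), without the resting library of mouse 1 (0.0133) and without the proliferative library of mouse 1, 2, 6 or 13 (0.0110, 0.0102, 0.0189 and 0.0202).

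Levels of different genes were set beside each other per kilobase of exon. The length was that of all annotated exons merged and the RNA had been amplified, so the order is approximate. On this scale *Cd68* and *Grn* led the resting zone with mean levels of 160.5 and 158.9 CPM per kb, and *Ctsz* followed with 125.7. In the proliferative zone *Ctsz* led with 70.9 CPM per kb, ahead of *Cd63* with 44.7 and *Ppt1* with 28.2. *Grn* stood at 25.9 and *Cd68* at 8.00 CPM per kb there. In CPM, with no division by length, *Grn* had the highest resting mean (552), and *Cd68* (202) came after *Npc2*, *Ppt1*, *Ctsa*, *Atp6v1b2*, *Cd63*, *Psap* and *Ctsb*.

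Genes of the pathway outside the list were read in the same fits. Of 34 further hydrolases and cofactors 9 were tested in the filtered fit and 3 rose in the resting zone. They were *Gm2a*, the GM2 activator, at 139 ± 87.2 against 15.5 ± 5.83 CPM (log2 fold change 3.19), *Sgsh*, a heparan sulfate sulfatase, at 52.4 ± 9.82 against 6.06 ± 5.19 CPM (3.04), and *Arsb*, which removes sulfate from dermatan and chondroitin sulfate, at 68.5 ± 30.8 against 9.36 ± 2.33 CPM (2.79, SD, n = 4). The edgeR adjusted p was 0.00125, 0.00125 and 0.00118. The unfiltered fit called these 3 and *Ctsf*, the cysteine protease cathepsin F, with 7, 8, 34 and 5 counts in the resting zone of mice 1, 2, 6 and 13 and 3, 4, 3 and 0 in the proliferative zone (log2 fold change 2.58, edgeR adjusted p = 0.00808). The summed level of the 34 ranged from 1572 to 2243 CPM in resting libraries and from 1265 to 1582 CPM in proliferative libraries, so the zones overlapped. A large part of this sum lay in *Idua*, which was not called, at 617 ± 312 against 706 ± 102 CPM (SD, n = 4). Of 20 further membrane proteins and transporters 4 were tested and 0 were called by edgeR's quasi-likelihood test, its likelihood ratio test or DESeq2, with 1 at an unadjusted p below 0.05.

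Of 10 further V-ATPase genes, all of them isoforms of listed subunits, 3 were tested and all 3 were called by edgeR, although *Atp6v0d2*, whose 13 proliferative counts all lay in mouse 1, was not called by DESeq2 (adjusted p = 0.0207). *Tcirg1*, the a3 subunit that osteoclasts use, stood at 79.7 ± 28.9 against 4.44 ± 4.21 CPM (log2 fold change 4.29, edgeR adjusted p = 0.000642), and *Atp6v0d2*, an isoform also rich in osteoclasts, at 138 ± 52.6 against 6.31 ± 12.6 CPM (4.32, edgeR adjusted p = 0.00266; SD, n = 4). *Atp6v1c2* was the only pump gene, among the members and these 10, to be called higher in the proliferative zone, at 158, 117, 61.7 and 167 CPM in resting libraries and at 348, 402, 469 and 523 CPM in proliferative libraries. Its log2 fold change was -1.81 (SE 0.31, edgeR adjusted p = 0.00109), with no overlap between the zones. The exons of *Atp6v1c2* share 50 bases with those of *Pdia6* on the opposite strand, which stood at 34.7 ± 19.0 and 97.2 ± 34.3 CPM. *Pdia6* moved in the same direction (log2 fold change -1.44, edgeR adjusted p = 0.0217). The strand setting of the counting is not given, so this call is uncertain in that respect.

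Genes that carry hydrolases to the lysosome went both ways. Of 24, 13 were tested, with *Ap3m1*, a subunit of the AP-3 adaptor, called higher in the resting zone (1805 ± 241 against 545 ± 239 CPM, log2 fold change 1.73, edgeR adjusted p = 0.000901) and the retromer subunit *Vps29* called higher in the proliferative zone (227 ± 60.4 against 483 ± 76.9 CPM, log2 fold change -1.09, edgeR adjusted p = 0.00542). The unfiltered fit called 3 of the 24 higher in proliferative libraries, *Vps29* (-1.32), the sorting receptor *Sort1* (28.5 ± 10.1 against 78.1 ± 17.8 CPM, -1.66, edgeR adjusted p = 0.00880) and the early endosome GTPase *Rab5a* (2.34 ± 3.02 against 20.5 ± 17.4 CPM, -3.26, edgeR adjusted p = 0.00986), and 1 higher in resting libraries. Of 21 regulators at the lysosomal surface and its transcription factors, 5 were tested and 0 were called by any of the 3 tests, with 1 at an unadjusted p below 0.05, in the proliferative direction. *Tfeb* had 1 count over the 8 libraries, in the proliferative library of mouse 13, so its level could not be compared at this depth. The median log2 fold change was 0.05 for the 24 carriers and 0.05 for the 21 regulators, against 1.41 for the 47 members and 0.16 for all genes in the same fit.

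Markers of other cell types moved with the lysosomal genes. All 12 chondrocyte markers were detected, at summed levels of 7411 to 19370 CPM in resting libraries and 34481 to 59248 CPM in proliferative libraries, of which 7 were called, each with the higher level in the proliferative zone, while a mouse term raised the count to 10 and the unfiltered fit called all 12. The 12 osteoclast markers, which include *Tcirg1* and *Atp6v0d2*, summed to 4797, 1959, 3480 and 4971 CPM in the resting zone of mice 1, 2, 6 and 13, and to 509, 90.7, 104 and 149 CPM in the proliferative zone. Of the 8 tested, 7 were called higher in the resting zone, as were 10 of the 12 in the unfiltered fit, while *Calcr* and *Ocstamp* were at 0 in the proliferative zone. In the proliferative zone mouse 1 was highest for this sum and for the summed V-ATPase genes.

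The 12 macrophage markers summed to 829 to 1198 CPM in resting libraries and 197 to 491 CPM in proliferative libraries, and 3 of the 4 tested rose in the resting zone. In the unfiltered fit 7 of the 12 were called higher in resting libraries. *Lyz2* stood at 320 ± 119 against 22.9 ± 39.3 CPM, *Fcer1g* at 120 ± 30.0 against 7.35 ± 12.1 CPM and *Tyrobp* at 90.3 ± 15.5 against 8.21 ± 8.21 CPM (SD, n = 4). *C1qa*, *C1qb*, *C1qc* and *Mrc1* did not pass the filter and were called in the unfiltered fit. Their log2 fold changes were 4.54, 4.89, 4.53 and 4.22 (edgeR adjusted p = 0.00216, 2.24e-06, 6.61e-05 and 0.00956). The remaining markers were not called. *Cd14* and *Cx3cr1* had no count in any library, and *Adgre1* and *Aif1* had 1 and 3 counts in resting libraries and 0 in proliferative libraries. *Csf1r* stood at 369 ± 65.7 and 305 ± 86.8 CPM (SD, n = 4). The exons of *Csf1r* share 873 bases with those of *Hmgxb3* on the opposite strand, so its values are uncertain in that respect. The 8 neutrophil markers summed to 3052 to 3921 CPM against 0 to 551 CPM, with *Elane* and *Mpo* at 0 in the proliferative zone and 6 of 7 tested called, or 8 of 8 in the unfiltered fit. The 7 erythroid markers summed to 1811 to 12026 CPM against 0 to 1716 CPM, with 4 of 7 called. All 7 were called in the unfiltered fit and when the mouse was added as a term, and 1 with DESeq2. The 9 osteoblast and osteocyte markers summed to 9595 to 37401 CPM against 620 to 4005 CPM, with 2 of 5 tested called, or 6 of 9 in the unfiltered fit, and *Sost* at 0 in the proliferative zone. Most of the osteoblast sum lay in *Col1a1* (15162 ± 8474 against 798 ± 967 CPM) and *Col1a2* (7454 ± 2977 against 811 ± 516 CPM), while *Sp7* had a log2 fold change of -1.30 (edgeR adjusted p = 0.0471) and was not called. The 6 endothelial markers, none of which passed the filter, summed to 109 to 249 CPM against 1.71 to 13.6 CPM, and 4 of them, *Pecam1*, *Cdh5*, *Emcn* and *Kdr*, were called higher in resting libraries in the unfiltered fit. The resting libraries thus carried markers of bone and marrow cells beside those of chondrocytes. The part of these cells in the lysosomal differences was not tested.

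**Figure D4:**
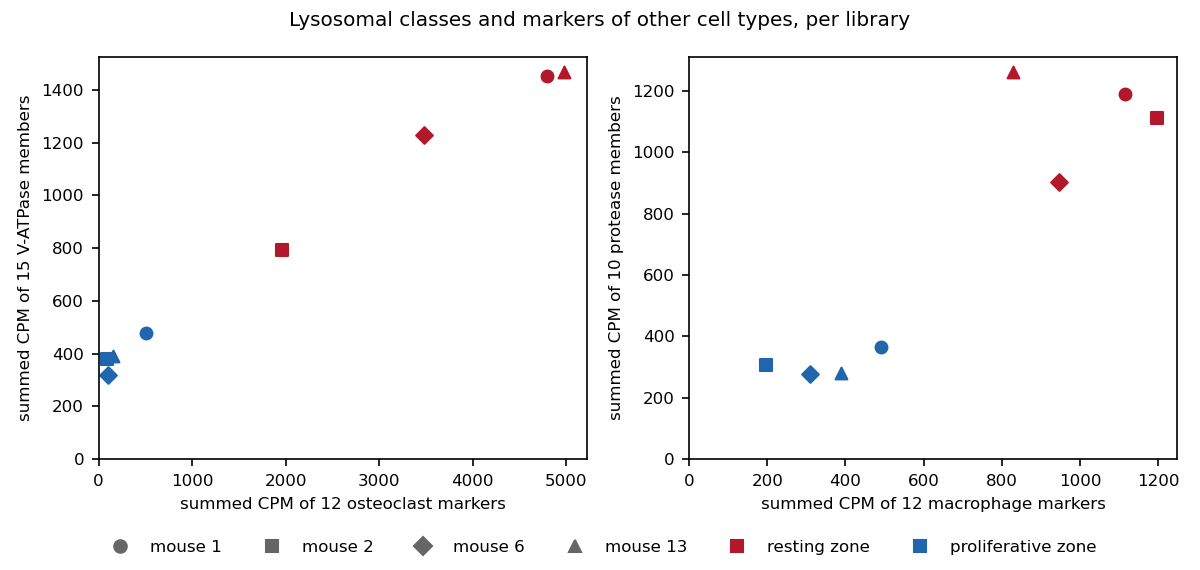
Summed CPM of the 15 V-ATPase genes against that of 12 osteoclast markers (left) and summed CPM of the 10 proteases against that of 12 macrophage markers (right), with 1 point per library, red for the resting zone and blue for the proliferative zone. The resting libraries lie at 1959 to 4971 CPM of osteoclast markers and the proliferative libraries at 90.7 to 509 CPM, with mouse 1 the highest of the latter.

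The proliferative library of mouse 1 was also the highest of its zone in macrophage, neutrophil, erythroid and osteoblast markers. With both libraries of mouse 1 left out, 11 of the 47 were called higher in resting libraries and 0 in proliferative libraries, and the log2 ratio of the summed CPM was 1.90 for the proteases, 1.95 for the lipid class and 1.66 for the V-ATPase, against 1.86, 1.99 and 1.66 in all mice. *Hexa*, *Atp6v0b*, *Atp6v1f* and *Atp6ap1* lost their call there.

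Reads of a member and of a gene on the opposite strand may not have been separated, or may have been counted for the other strand. The strand setting of the counting is not given in the sources used here, and in the female libraries 18683 counts were assigned to *Tsix* and 1367 to *Xist*, its opposite-strand partner. *Tcfl5*, opposite *Col9a3*, stood at 2686 ± 1158 against 31838 ± 4203 CPM, and *Col9a3* at 264 ± 176 against 662 ± 216 CPM. *Apex2*, opposite *Alas2*, stood at 3429 ± 2513 against 238 ± 365 CPM. *Alas2* itself stood at 319 ± 199 against 20.2 ± 37.1 CPM (SD, n = 4). Other partners lay below their gene, among them *Vcl* of *Ap3m1*. On which strand the counts lie was not tested. Exons of 12 members share bases with an exon on the opposite strand in GENCODE M21. *Pltp*, which shares 495 bases with *Ctsa*, stood at 1728 ± 510 against 483 ± 162 CPM (log2 fold change 1.84, edgeR adjusted p = 0.000775). *Fdft1*, which shares 774 bases with *Ctsb*, stood at 696 ± 267 against 168 ± 75.5 CPM (2.05, edgeR adjusted p = 0.00105). Both partners were more abundant than the member and were called in the same direction, so values of *Ctsa* and *Ctsb* are uncertain in this respect. Further partners were *Cap1* of *Ppt1* (log2 fold change 0.98, edgeR adjusted p = 0.0299), *Nelfcd* of *Ctsz* (0.93, 0.0127) and *Gm12841* of *Atp6v0b* (1.31, 0.0954), and the partner of *Grn* had 2 counts in all libraries. *Ctsc*, *Ctsd*, *Ctss*, *Psap*, *Npc2*, *Cd68*, *Atp6v1b2*, *Atp6v1f*, *Atp6ap1* and *Atp6ap2* had no such partner, although *Ctsd* shares 808 exonic bases with *Gm49369* on its own strand. The absence of a partner does not settle on which strand the counts of these genes lie, so their values are uncertain in this respect as well. Among the further genes, *Arsb* shares 1948 bases with *Gm26527*, which stood at 8531 ± 3881 against 1706 ± 947 CPM. *Ap3m1* shares 2090 with *Vcl* (74.6 ± 19.2 against 41.2 ± 5.32 CPM), 29.8% of its exonic length. *Vps29* shares 340 with *Fam216a* (112 ± 46.5 against 54.6 ± 26.3 CPM). *Sgsh*, *Sort1* and *Rab5a* share 955, 338 and 221 with *Card14*, *Gm12523* and *Pp2d1*. The calls of these genes are uncertain in this respect as well.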

How the data were processed

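Mouse growth plate zones were sequenced as 8 libraries, 1 per zone from each of 4 mice. The authors trimmed reads, aligned them to GRCm38 with HISAT2 2.1.0, counted them per gene with HTSeq 0.11.2 (versions per the labels) and deposited whole-number counts without normalization. A second table that the authors deposited holds a TMM-scaled CPM signal per library, and their own log2 fold change, mean log2 CPM, likelihood ratio, p-value and false discovery rate. Only its gene names were used here. From the deposited counts, edgeR 4.0.16 (R 4.3.3, TMM factors, a minimum count of 10 and total of 15, quasi-likelihood test, zone as the only term) tested 3793 genes, with Benjamini-Hochberg adjustment and a common biological coefficient of variation of 0.380. A second fit took all 17492 genes with at least 1 count. An exact permutation test compared single genes. It shuffled the 8 libraries freely and did not use the pairing by mouse. DESeq2 1.42.0, the likelihood ratio test, other scaling factors, filters and thresholds, a replicate block, in the second fit as well (added after seeing the data), and each library left out served as alternatives. Coordinates are those of GENCODE M21 (GRCm38), a later annotation than that of the counts. Python 3.11.15 with pandas 2.3.3 and matplotlib 3.10.9 joined and plotted the values.

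The p-values of the fits with zone as the only term measure the spread between libraries of the same zone. Only the fits with the mouse as a block use the pairing. Total counts ranged from 192882 to 631474 per library, and 3 counts corresponded to 4.81 to 14.7 CPM. These limits cover counting error only. Libraries with the same number come from the same mouse by the labels, so the numbers pair them. With the mean of each zone removed, the correlation between the libraries of mice 1, 2, 6 and 13 was 0.195, 0.0104, 0.144 and 0.0635. The members, classes and other lists were chosen with earlier results of these data known, so no list was tested. Values in every library are given for each member called in either fit and for the 2 members of highest mean CPM in each class. Other lysosomal genes are named where called in either fit, at most 4 per list. *Tfeb*, *Idua*, the marker genes and the opposite-strand partners were named after their values were seen.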

Additional observations from a re-analysis of the deposited data

Results flagged for a closer look

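In 52 groups of 4 libraries, each value was checked for a library whose gap to its nearest neighbor took more of the range of the group than Dixon's critical value allows. Chance flags about 1 in 20 such groups, and 8 were found. In the proliferative zone the library of mouse 1 stood apart for *Ctss* at 17.5 CPM, *Cd68* at 36.9 CPM and *Atp6v1b2* at 54.4 CPM, each above the other 3 libraries. It was also the proliferative library with the highest summed osteoclast and macrophage markers, at 509 and 491 CPM, and the part of these cells was not tested. In the resting zone the library of mouse 1 stood apart for *Grn* at 908 CPM and for the summed lipid class, of which *Grn* is a member, at 2245 CPM. The resting library of mouse 13 stood apart for *Gusb* at 88.3 CPM, and that of mouse 2 lay below the others for *Atp6ap2* at 38.0 CPM. The proliferative library of mouse 6 lay below the others for *Atp6v0b* at 12.8 CPM.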

How the results depend on the processing

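The number of lysosomal genes called higher in the resting zone was 15, and between 11 and 18 under other tests, scaling factors, the replicate block and left-out libraries. It was 20 at an adjusted p below 0.05 without a limit on the fold change and 4 with at least 10 counts in every library, where fewer genes are tested. The number called higher in the proliferative zone was 0 in each. With the mouse as a replicate block 15 were called, *Atp6v0b* was lost (log2 fold change 1.68) and *Atp6v1a* gained (1.73), and no other call among the members with values in every library changed in the filtered fit. In the fit of all genes with at least 1 count, the replicate block, chosen after seeing the data, called 13 of the 47, 659 of all genes in the resting direction and 445 in the other, and *Atp6v1a* and *Atp6v1f* lost the calls they had in that fit without it. All genes called higher in the resting zone were 419, against 829 with at least 1 count, 125 with at least 10 counts in every library, 689 at an adjusted p below 0.05 and 255 to 472 with a library left out, the lowest without the proliferative library of mouse 2. Those called higher in the proliferative zone were 263, against 468, 137 and 497 under the same 3 settings, and 170 with mouse 1 left out, a setting chosen after seeing the data. The median log2 fold change was 0.85 for the proteases with at least 10 counts in every library (1 gene) and 1.79 for the lipid class after edgeR's filter (6 genes), and that of the glycosidases lay between 1.14 and 1.70 with a library left out. The log2 ratio of the summed CPM was 1.63 for the proteases and 1.77 for the lipid class with upper quartile factors, and 1.77 to 2.09 for the lipid class with a library left out. *Gusb* lay between -0.21 and 0.68 with a library left out, and changed sign without the resting library of mouse 13. The causes were not tested. Depth limited the 16 genes that did not pass the filter.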

Other observations

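The 2 listed symbols outside the authors' comparison table had counts in the count table. *Galns* had 7 counts in the resting zone, in 3 of the 4 mice, and 0 in the proliferative zone. *Gla* had 3 counts in the resting zone, all in mouse 2, and 0 in the proliferative zone. Both zones lie near the limit of 3 counts per library for these genes, so no ratio is given.

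*Mitf*, a transcription factor of the family that binds the CLEAR element, did not pass edgeR's filter. It stood at 66.8, 44.4, 11.9 and 29.4 CPM in the resting zone of mice 1, 2, 6 and 13, and at 11.6, 8.56, 3.20 and 0 CPM in the proliferative zone. The zones were apart by less than 1 CPM, and in the fit over all genes with a count the log2 fold change was 2.25 (edgeR adjusted p = 0.0193), which was not called. This gene was chosen after its values were seen.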
